A study of Mus musculus with 25 samples.

Results

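The 6 mouse Cyp4a genes Cyp4a10, Cyp4a14, Cyp4a31, Cyp4a32, Cyp4a12a and Cyp4a12b were followed in liver RNA sequencing data from 25 libraries. They were selected on the NAMPT comparisons of these same libraries, where an earlier analysis had placed Cyp4a10 and Cyp4a14 among the largest changes. The other 4 genes came in by family membership. Values of the comparisons that chose the family are therefore given as a description, with no test. The files list 41388 features, of which 11 are Cyp4a genes or pseudogenes, and all 6 genes were among the 14065 genes that passed the filter on low counts (above 1 CPM, a count scaled to the library's total, in at least 2 libraries).

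The mice were males of the C57B/6J strain with an age label of 20 weeks. They were fed chow or Western diet (WD), and all received an AAV8 virus by vein, either an empty vector (EV) or one carrying NAMPT, the rate-limiting enzyme of NAD+ salvage. The study used a hepatocyte promoter, TBG, to drive the insert. Liver-specific SIRT1 knockouts (LKO) carried floxed Sirt1 alleles and Albumin-cre, so deletion was limited to cells that express albumin, and their floxed littermates without Cre served as wild type (WT). The groups were chow WT EV (n = 3), WD WT EV (n = 6), WD WT NAMPT (n = 6), WD LKO EV (n = 5) and WD LKO NAMPT (n = 5). Each library is labelled as a separate sample, and p-values measure the spread between these samples.

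Cyp4a enzymes are cytochromes P450 of the endoplasmic reticulum that add a hydroxyl group to the terminal carbon of fatty acids. The product can be oxidized to a dicarboxylic acid that is shortened in peroxisomes, and with arachidonic acid as substrate some family members make 20-HETE. Cyp4a10 and Cyp4a14 are textbook targets of PPARA, the fatty acid-sensing nuclear receptor of hepatocytes, whereas Cyp4a12a is a male-predominant gene of mouse liver and kidney that depends on androgen and growth hormone.

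All 6 genes lie in 1 cluster of 322557 bases on chromosome 4 of GRCm38, from 115299046 to 115621602. Cyp4a12a (ENSMUSG00000066071) spans 115299046 to 115332815 and Cyp4a12b (ENSMUSG00000078597) spans 115411624 to 115439034. Cyp4a14 (ENSMUSG00000028715) spans 115486200 to 115496142 and is the only member on the minus strand. Cyp4a10 (ENSMUSG00000066072) spans 115518264 to 115533649, Cyp4a31 (ENSMUSG00000028712) spans 115563649 to 115579015 and Cyp4a32 (ENSMUSG00000063929) spans 115600969 to 115621602. No member shares exonic bases with another annotated gene.

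The sequences fall into 3 sets, which decides how reads of these genes can be assigned. Over the coding bases Cyp4a10 is 97.2% identical to Cyp4a32 and 96.6% identical to Cyp4a31, and Cyp4a12a is 98.5% identical to Cyp4a12b. Cyp4a14 is no more than 76.1% identical to any other member. The first 60 coding bases are shown because the 3 sets can be read from them directly. They are exonic, taken from the Ensembl transcripts of GRCm38, and capitals mark bases that differ from Cyp4a10, at 1 position in Cyp4a32, 3 in Cyp4a31, 15 in Cyp4a12a and 24 in Cyp4a14.
Cyp4a10: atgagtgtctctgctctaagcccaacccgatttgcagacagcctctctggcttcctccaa
Cyp4a32: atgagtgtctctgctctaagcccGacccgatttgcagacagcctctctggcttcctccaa
Cyp4a31: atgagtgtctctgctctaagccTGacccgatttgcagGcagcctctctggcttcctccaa
Cyp4a12a: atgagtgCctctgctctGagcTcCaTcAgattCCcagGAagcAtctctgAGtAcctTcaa
Cyp4a12b: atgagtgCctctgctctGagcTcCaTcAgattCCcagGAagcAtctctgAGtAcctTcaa
Cyp4a14: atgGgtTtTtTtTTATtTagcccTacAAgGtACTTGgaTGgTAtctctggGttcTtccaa

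The 60 bases around the haem-binding cysteine codon, the most conserved stretch of a P450, are shown as the opposite case. There Cyp4a31 and Cyp4a32 have the same letters as Cyp4a10, Cyp4a12b has those of Cyp4a12a, and capitals again mark differences from Cyp4a10.
Cyp4a10: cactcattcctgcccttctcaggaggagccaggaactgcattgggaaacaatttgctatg
Cyp4a12a: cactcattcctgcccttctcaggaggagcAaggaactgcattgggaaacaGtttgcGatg
Cyp4a14: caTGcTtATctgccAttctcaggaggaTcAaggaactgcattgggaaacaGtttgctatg

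A read of 50 bases from such a stretch has more than 1 possible source and was dropped by the counting, which kept unique alignments. Of all 50-base windows along the transcript, 48.9% in Cyp4a12a, 49.4% in Cyp4a12b, 46.8% in Cyp4a32, 30.5% in Cyp4a10 and 21.8% in Cyp4a31 also occur in another annotated transcript, against 0.245% in Cyp4a14. Levels of these 5 genes can be underestimates by unequal amounts, and a read with a sequencing error could be credited to a neighbour. Cyp4a14 is nearly free of this. The sum of Cyp4a10, Cyp4a31 and Cyp4a32 and the sum of Cyp4a12a and Cyp4a12b are given beside the single genes. Such a sum is not changed by reads credited to the wrong member within it, but it does not bring dropped reads back.

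Total counts per library ran from 20166175 to 32937326. Counts per member ran from 48 to 395 for Cyp4a31, from 247 to 1160 for Cyp4a32 and from 374 to 3746 for Cyp4a12b, and the other 3 members never fell below 659. The hepatocyte gene Alb stood at 31261 to 54138 CPM in every library, and Kap, an abundant kidney transcript of male mice, was at 0 in every library. Sirt1 was not called lower in the libraries labelled LKO. Its mean level was 8.57 ± 1.33 CPM in WD LKO EV and 8.86 ± 0.573 CPM in WD WT EV (SD; log2 fold change -0.07, limma adjusted p = 0.990). Between the genotypes given NAMPT it was 0.19 ± 0.11 log2 higher in LKO (SE, limma adjusted p = 0.237), the direction opposite to the label. Counts summed over a whole gene do not show whether the floxed exon was lost, so genotype is used here as the label gives it. Nampt was 0.34 ± 0.16 log2 higher (SE) in WD WT NAMPT than in WD WT EV, which did not pass the test (limma adjusted p = 0.144), and 0.41 ± 0.16 higher in WD LKO NAMPT than in WD LKO EV (adjusted p = 0.403). Library 3 of chow WT EV stood apart in the Cyp4a genes, as given with the diet comparison.

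Cyp4a10 made up the largest length-corrected share of the family in 3 of the 5 groups. The levels are uniquely counted reads over the full exon length. Members lose unequal parts of their reads to shared windows, from 0.245% of windows in Cyp4a14 to 49.4% in Cyp4a12b. Ranks and shares between members are therefore uncertain. In WD WT EV its mean level was 176 CPM per kilobase of exon, against 101 for Cyp4a12a, 77.5 for Cyp4a14, 38.0 for Cyp4a12b, 12.6 for Cyp4a32 and 3.28 for Cyp4a31. Its share of the summed family level was 42.8% ± 2.42 (SD, n = 6), between 38.9% and 46.1%, although its CPM ranged from 229 to 614 in the same libraries. In WD LKO EV the share was 53.9% ± 5.21 (n = 5) and in WD LKO NAMPT it was 48.2% ± 8.40 (n = 5).

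On the same measure and with the same limit, Cyp4a12a had the largest share in the other 2 groups. In WD WT NAMPT it held 44.6% ± 6.08 of the family (n = 6), while Cyp4a10 held 21.4% ± 4.56. In chow WT EV Cyp4a12a held 39.4% ± 22.7 and Cyp4a10 22.1% ± 4.54 (n = 3), and the wide spread came from library 3, where the share of Cyp4a12a was 13.2% and that of Cyp4a14 was 45.6%. Cyp4a31 held between 0.766% and 1.65% on average in every group.

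**Figure D1:**
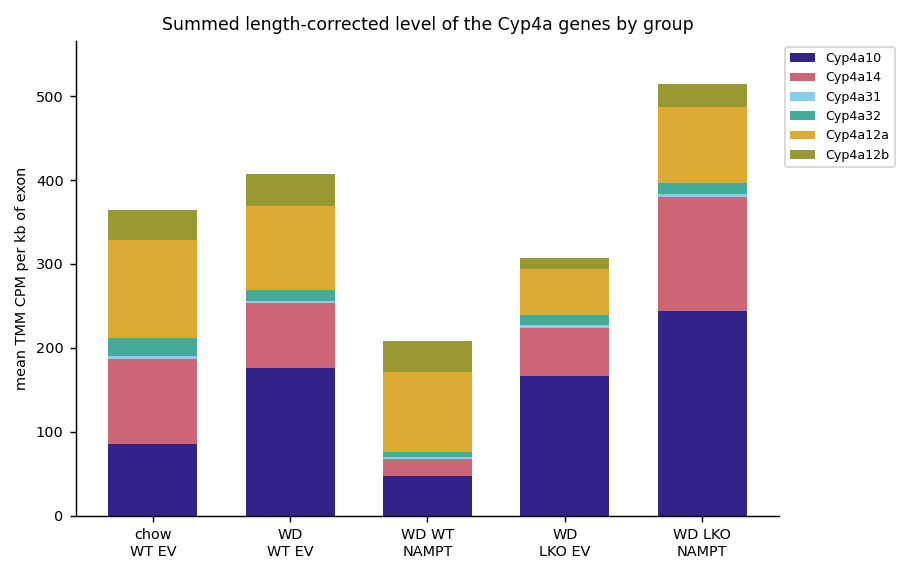
Stacked bars give the mean level of each of the 6 Cyp4a genes in each of the 5 groups, in TMM-normalized CPM per kilobase of exon, from 0. Reads from windows shared between members were not counted, so segments of different genes are not directly comparable. The Cyp4a10 segment is 176 in WD WT EV, 47.1 in WD WT NAMPT and 244 in WD LKO NAMPT, while the Cyp4a12a segment is 101, 94.95 and 91.4 in the same groups.

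In wild-type mice on Western diet, Cyp4a10, Cyp4a14 and Cyp4a32 were lower with NAMPT than with the empty vector, and Cyp4a12a and Cyp4a12b were at like levels in both groups. These are the libraries that chose the family. Cyp4a10 ranged from 229 to 614 CPM in WD WT EV, with a median of 307, and from 27.3 to 179 CPM in WD WT NAMPT, with a median of 103. Every NAMPT library thus lay below every EV library. With NAMPT the level was 3.79-fold lower, a log2 fold change of -1.92 ± 0.33 (SE).

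Cyp4a14, the paralogue with few shared windows, ranged from 43.8 to 341 CPM in WD WT EV, with a median of 238, and from 33.1 to 95.5 CPM in WD WT NAMPT, with a median of 39.8. The ranges overlapped because EV libraries 7 and 8 stood at 82.8 and 43.8 CPM, while the other 4 were at 213 or above. With NAMPT it was 2.91-fold lower, a log2 fold change of -1.54 ± 0.55.

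Cyp4a32 ranged from 12.8 to 30.5 CPM in WD WT EV, with a median of 19.4, and from 7.92 to 15.4 CPM in WD WT NAMPT, with a median of 9.51. Only NAMPT library 6, the highest of its group, reached into the EV range. Its log2 fold change was -0.98 ± 0.23, and that of Cyp4a31, the least abundant member, was -0.62 ± 0.31 with ranges of 5.17 to 9.96 and 3.13 to 8.80 CPM. The sum of Cyp4a10, Cyp4a31 and Cyp4a32 averaged 398 CPM in WD WT EV and 116 CPM in WD WT NAMPT, and its libraries did not overlap.

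The male-predominant pair behaved otherwise. Cyp4a12a ranged from 119 to 386 CPM with the empty vector and from 68.7 to 350 CPM with NAMPT, with medians of 245 and 226. Cyp4a12b ranged from 18.3 to 162 CPM and from 33.0 to 202 CPM, with medians of 92.6 and 70.5. The log2 fold changes were -0.06 ± 0.33 and -0.10 ± 0.39, smaller than their errors, and their sign turned under some alternatives. Of all genes tested 0.960% had libraries that did not overlap in this comparison, 7.67% were called higher and 5.77% were called lower. Those limma calls were 1079 and 811 genes, and they were 270 and 158 in the edgeR quasi-likelihood test, 64 and 68 without WD WT NAMPT library 3 and 174 and 117 without WD WT EV library 2. Since the comparison chose the family, nothing is read from the 1 of 6 members without overlap.

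**Figure D2:**
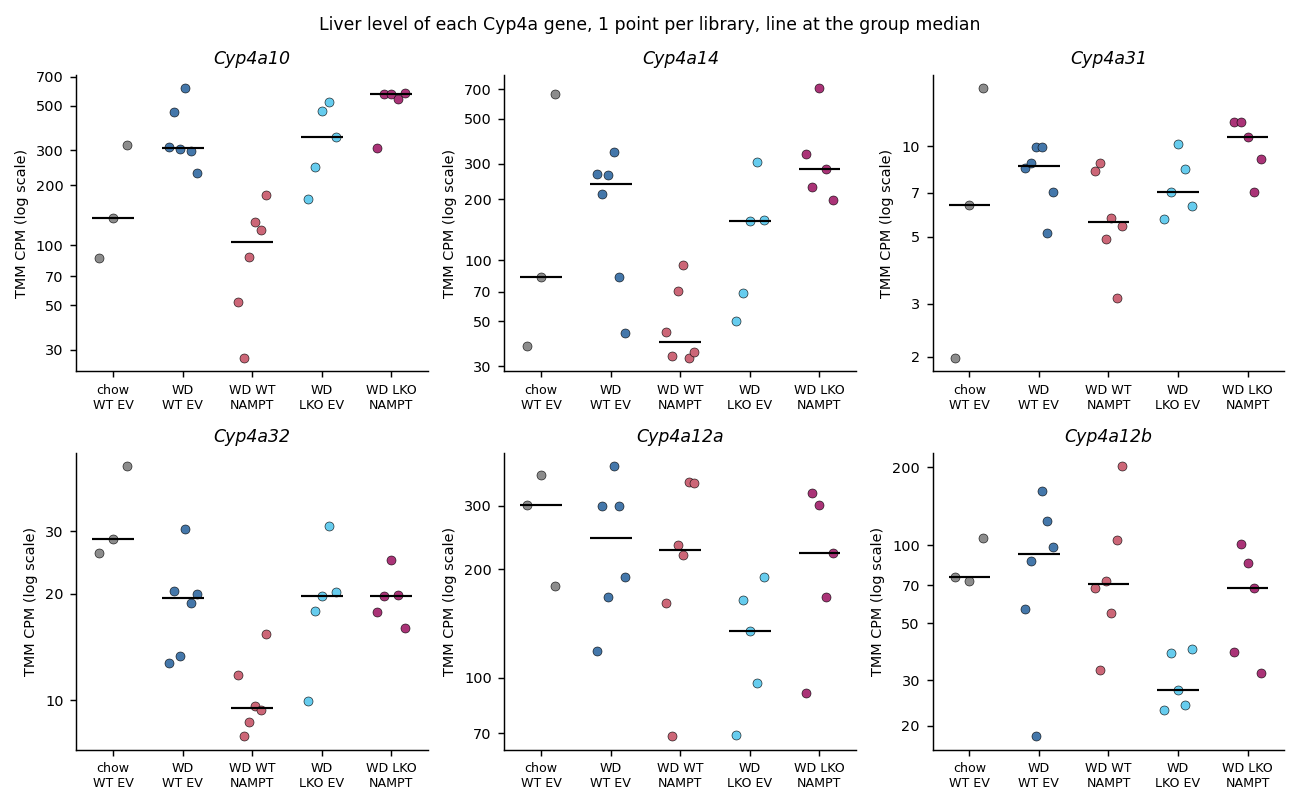
Each panel shows 1 Cyp4a gene, with 1 point for each of the 25 libraries and a line at the group median, in TMM CPM on a log scale, over the 5 groups. Cyp4a10 points of WD WT NAMPT (27.3 to 179) all sit below those of WD WT EV (229 to 614) and WD LKO NAMPT (308 to 577), whereas Cyp4a12a points overlap in all 5 groups.

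Among mice given NAMPT, the same 3 genes were higher in the libraries labelled LKO than in WT. Cyp4a10 stood at 308, 575, 571, 542 and 577 CPM in WD LKO NAMPT libraries 1 to 5, all above the highest WD WT NAMPT library at 179. The log2 fold change was 2.45 ± 0.36 (5.45-fold). Libraries 2 to 5 sat within a narrow band and library 1 lay well below it.

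Cyp4a14 stood at 335, 231, 709, 284 and 200 CPM in the same libraries, again all above the WT range of 33.1 to 95.5. Library 3 was the highest Cyp4a14 value of any group. It differed by 2.14 ± 0.60 log2 (4.41-fold) from WT. Cyp4a32 stood at 17.8, 19.7, 24.9, 19.9 and 16.1 CPM, above the WT maximum of 15.4, with a log2 fold change of 0.99 ± 0.24. For Cyp4a31 the values of 12.0, 12.0, 10.7, 7.07 and 9.09 CPM overlapped the WT range, with a log2 fold change of 0.92 ± 0.30.

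Cyp4a12a stood at 90.4, 326, 302, 168 and 221 CPM in WD LKO NAMPT and Cyp4a12b at 38.6, 101, 85.0, 68.2 and 32.1 CPM. Their log2 fold changes against WD WT NAMPT were 0.00 ± 0.35 and -0.16 ± 0.41. The first turned negative under every other setting that kept all libraries, between -0.49 and -0.03, and the values of both genes overlapped those of WT throughout. Libraries did not overlap for 3 of 6 members in this comparison and for 1.39% of all genes, while 4.18% of genes were called higher and 3.78% lower. The limma calls were 588 and 532 genes, against 30 and 15 in the edgeR quasi-likelihood test, 7 and 6 with only the groups compared in the fit, and 12 and 10 with 2 surrogate variables. Without WD LKO NAMPT library 2 limma called 0 genes, with 2287 at an unadjusted p under 0.05, and without library 5 it called 2 higher and 0 lower. No call given further on for this comparison was thus made without library 2. This comparison also chose the family and shares the WD WT NAMPT libraries with the one before.

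The NAMPT effect in LKO minus that in WT was 2.64 ± 0.49 log2 for Cyp4a10 and 2.73 ± 0.81 for Cyp4a14. For the other members it was 1.16 ± 0.56 (Cyp4a12b), 1.02 ± 0.41 (Cyp4a31), 0.997 ± 0.31 (Cyp4a32) and 0.86 ± 0.47 (Cyp4a12a). These values hold the comparison that chose the family and are given without a test.

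The effect of the vector within the LKO genotype did not choose the family, although its NAMPT libraries did take part in that choice. No member passed the test there. Cyp4a10 stood at 170, 247, 472, 521 and 348 CPM in WD LKO EV, and 4 of 5 WD LKO NAMPT libraries lay above all of these. The log2 fold change was 0.72 with a 95% interval from -0.04 to 1.48 (limma adjusted p = 0.550).

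Cyp4a14 stood at 50.2, 69.3, 157, 306 and 159 CPM in WD LKO EV, with a log2 fold change of 1.19 (95% interval -0.03 to 2.41, limma adjusted p = 0.532). Libraries 1 and 2 of WD LKO EV were low in both genes. Cyp4a12a and Cyp4a12b were 0.79 (0.11 to 1.48) and 1.05 (0.21 to 1.89) log2 higher with NAMPT, with limma adjusted p-values of 0.438 and 0.403. Cyp4a31 gave 0.40 (-0.17 to 0.98) and Cyp4a32 gave 0.02 (-0.42 to 0.45), with limma adjusted p-values of 0.681 and 0.988.

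The 6 log2 fold changes were all positive, with a median of 0.76 beside 0.02 over all genes. Of all genes 0% were called higher and 0.00711% (1 gene) lower by limma, although 1355 had an unadjusted p under 0.05. The edgeR quasi-likelihood test also called 0 genes, with 918 under that value. The libraries did not overlap in 1.15% of genes and in none of the 6 members.

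Between genotypes given the empty vector, Cyp4a10, Cyp4a14, Cyp4a31 and Cyp4a32 overlapped widely, and the 2 male-predominant genes had lower levels in LKO without passing the test. The WD WT EV libraries took part in the choice of the family, so these tests are not independent of it either. Cyp4a10 averaged 352 ± 148 CPM (SD, n = 5) in WD LKO EV and 370 ± 142 CPM (n = 6) in WD WT EV, a log2 fold change of -0.19 with a 95% interval from -0.88 to 0.50 (limma adjusted p = 0.990). Cyp4a14 gave -0.59 (-1.70 to 0.52, limma adjusted p = 0.963). Cyp4a31 gave -0.10 (-0.68 to 0.48) and Cyp4a32 gave -0.01 (-0.42 to 0.41), with limma adjusted p-values of 0.998 and 0.999.

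Cyp4a12b stood at 23.1, 38.2, 27.6, 24.2 and 39.6 CPM in WD LKO EV, below 5 of the 6 WD WT EV libraries, which read 18.3, 56.7, 87.2, 98.1, 124 and 162 CPM. Library 4 of WD WT EV, at 18.3, was the exception. The log2 fold change was -1.32 (95% interval -2.11 to -0.52), with an unadjusted p of 0.00215 and an adjusted p of 0.488 in limma. Cyp4a12a stood at 69.1, 165, 135, 96.6 and 190 CPM in WD LKO EV, all but library 5 below 5 of the 6 WD WT EV libraries. It gave -0.86 (-1.50 to -0.22), with limma p-values of 0.0105 before and 0.654 after adjustment.

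The summed pair does not depend on how reads were split between both genes, and it averaged 162 ± 56.5 CPM in WD LKO EV and 335 ± 146 CPM in WD WT EV. Of all genes 0.00711% (1 gene) were called higher and 0% lower by limma, with 891 at an unadjusted p under 0.05. The quasi-likelihood test called 0, with 498 under that value. Libraries did not overlap in 0.590% of genes and in no member.

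**Figure D3:**
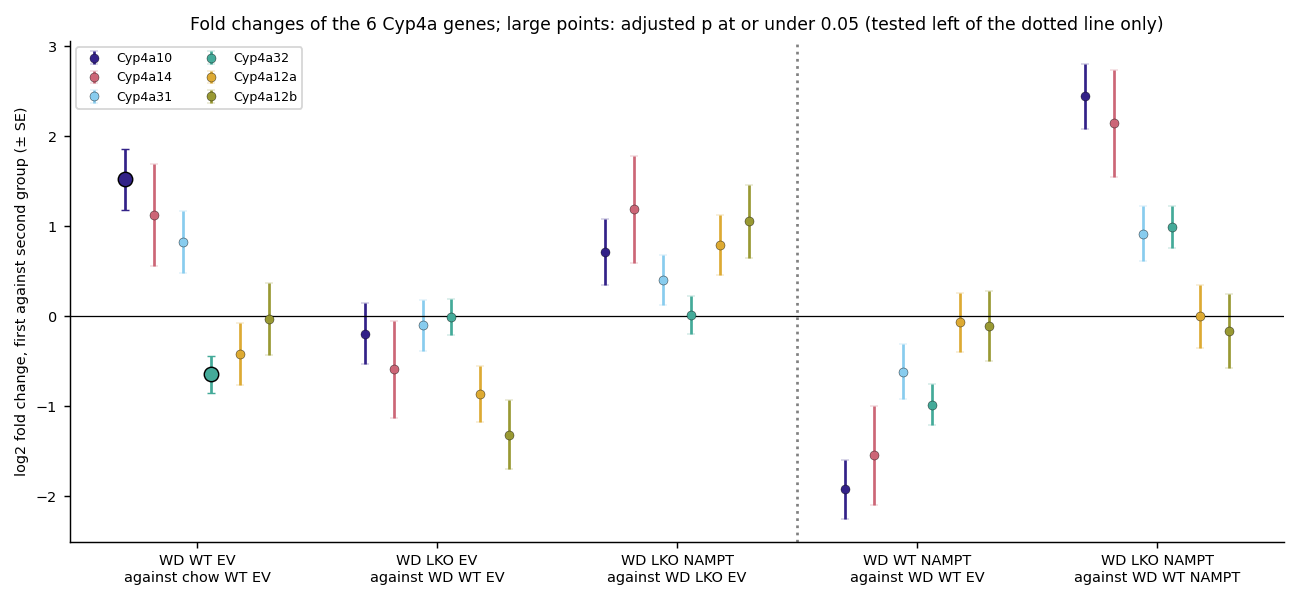
Points give the log2 fold change of each of the 6 Cyp4a genes (first against second group) in each of 5 comparisons from the limma fit, with bars of 1 SE; the 3 comparisons left of the dotted line were tested, and the 2 right of it chose the family. Large points mark the calls at an adjusted p of 0.05 or less, which are Cyp4a10 (1.52) and Cyp4a32 (-0.65) in Western diet against chow.

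Western diet against chow asked how feeding itself moved the genes in wild-type mice with the empty vector. Cyp4a10 rose and Cyp4a32 fell, and the other 4 did not pass the test. The WD WT EV libraries are also 1 arm of the comparison that chose the family, so these tests use values that took part in the choice and are not independent of it. Cyp4a10 stood at 86.3, 137 and 319 CPM in chow libraries 1 to 3. All 6 WD WT EV libraries lay above the first pair and 2 of 6 above library 3. The log2 fold change was 1.52 ± 0.34 (SE; 95% interval 0.82 to 2.22, limma adjusted p = 0.00258).

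Cyp4a32 stood at 26.1, 28.6 and 45.8 CPM on chow, and 5 of 6 WD WT EV libraries lay below all of these. The log2 fold change was -0.65 ± 0.21 (-1.07 to -0.22, limma adjusted p = 0.0281). Cyp4a10 and Cyp4a32, which share 34.8% of the Cyp4a32 windows, thus moved in opposite directions with diet. Of all genes 10.1% were called higher and 12.0% lower, beside 1 of 6 members each way, and libraries did not overlap in 16.1% of genes and in no member.

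Both calls changed with the test and with single libraries. Without chow library 1 Cyp4a10 gave 0.82 (limma adjusted p = 0.309), without library 2 it gave 1.15 (0.178), and without library 3 it gave 1.77 (0.000579). Under the edgeR quasi-likelihood test it gave 1.03 (adjusted p = 0.177) and Cyp4a32 gave -0.79 (adjusted p = 0.0639). Cyp4a32 was not called without chow library 2 (-0.89, limma adjusted p = 0.0732) or 3 (-0.54, 0.0682), or without WD WT EV library 1 (-0.53, 0.0703) or 4 (-0.54, 0.0711), and it was called without chow library 1 (-0.96, 0.0367).

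Chow library 3 was the library that stood apart. Its Cyp4a14 level was 666 CPM, beside 38.0 and 83.2 CPM in libraries 1 and 2, and its Cyp4a31 level was 15.6 CPM, beside 1.99 and 6.37 CPM. The limma fit gave this library a quality weight of 0.608, against 1.805 and 2.504 for the other two. The fitted log2 fold change of Cyp4a14 was positive, 1.12 (-0.05 to 2.29, limma adjusted p = 0.159), while its mean CPM was 202 on Western diet and 262 on chow. Without quality weights it was 0.35 (adjusted p = 0.818), and it was -0.38 in both edgeR tests and DESeq2. Without this library it was 1.66 (limma adjusted p = 0.0211), and Cyp4a31 went from 0.82 (adjusted p = 0.0873) to 1.24 (0.0110).

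Cyp4a12a stood at 302, 366 and 180 CPM on chow and Cyp4a12b at 75.0, 72.7 and 107 CPM. Their log2 fold changes with diet were -0.42 (95% interval -1.13 to 0.29) and -0.03 (-0.86 to 0.80), with limma adjusted p-values of 0.401 and 0.965. Library 3 was the lowest of the chow group for Cyp4a12a and the highest for Cyp4a12b.

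When the group means are put in order, Cyp4a10 ran from WD LKO NAMPT (515 ± 116 CPM) through WD WT EV (370 ± 142), WD LKO EV (352 ± 148) and chow WT EV (181 ± 122) to WD WT NAMPT (99.3 ± 55.3). Each group in this order overlapped the next. Cyp4a14 ran from WD LKO NAMPT (352 ± 206) through chow (262 ± 350), WD WT EV (202 ± 115) and WD LKO EV (148 ± 101) to WD WT NAMPT (52.1 ± 25.5), again with overlap between neighbours. Cyp4a32 was highest on chow (33.5 ± 10.7), between 19.3 and 19.8 in 3 of the WD groups and lowest in WD WT NAMPT (10.5 ± 2.72). Cyp4a12a and Cyp4a12b were lowest in WD LKO EV, at 131 ± 49.0 and 30.5 ± 7.83 CPM.

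Across the 25 libraries, levels on the log2 scale correlated between Cyp4a10 and Cyp4a14 (r = 0.77), between Cyp4a12a and Cyp4a12b (0.74) and between Cyp4a14 and Cyp4a31 (0.72), and hardly between Cyp4a10 and Cyp4a12a (0.19). After group means were taken out, Cyp4a10 and Cyp4a14 still gave 0.60, and Cyp4a10 and Cyp4a12a gave 0.57. Within groups Cyp4a10 therefore varied with both kinds of member, whereas Cyp4a14 and Cyp4a12a gave -0.05. All these values share libraries and depth, and are given as a description.

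Among 12729 genes outside the family, the levels most like those of Cyp4a10 were those of Gstk1 (r = 0.91), Got2, Bckdhb, Tmbim6 and Suclg1 (0.90). Gstk1 encodes a glutathione transferase of mitochondria and peroxisomes, Got2 a mitochondrial aminotransferase, Bckdhb a subunit of branched-chain ketoacid dehydrogenase and Suclg1 a subunit of succinyl-CoA ligase. With group means removed Gstk1 came first again (0.89), followed by Nipsnap1, Aldh9a1, Tmbim6 and Suclg1 (0.85).

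For Cyp4a14 the list of levels was led by Ehhadh (0.81), the peroxisomal bifunctional enzyme, followed by Kng2, Cerkl, 4930480G23Rik and Tgoln1 (0.77). With group means removed it was Kng2 (0.89), Cerkl, Smap2, Ehhadh and Robo4 (0.82). For Cyp4a12a the levels most alike were those of Farsb (0.79), Trub1, Mup10, Ces3a and Mindy3 (0.74), and the deviations most alike were those of Adipor2 (0.89), Gstz1, Hibch and Rgn (0.87). Mup10 is a major urinary protein gene, a class of male-predominant genes. No gene named here was shared between the lists of the 3 members.

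No other gene around the cluster was called. Of 24 annotated genes within 250000 bases, 7 passed the filter, and 0 of these were called by limma in the 5 comparisons. Cyp4b1, the gene next to Cyp4a32, ran from 16.3 to 30.9 CPM over all libraries. The non-member genes Cyp4a29 and Cyp4a30b did not exceed 0.0488 CPM. Of the 14 other Cyp4 genes listed, which act on longer fatty acids, leukotrienes or foreign compounds, 8 passed the filter and none was called in any comparison. Cyp4f14, a leukotriene B4 omega-hydroxylase, averaged 190 ± 69.1 CPM in WD WT EV and 173 ± 44.8 CPM in WD WT NAMPT (log2 fold change -0.11, limma adjusted p = 0.765), a gene named here after its values were seen.

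PPARA targets outside the family were lower with NAMPT in WT, higher in LKO than in WT among mice given NAMPT, and higher on Western diet, as Cyp4a10 was. The first pair of comparisons shares the WD WT NAMPT libraries, and the first and the last share the WD WT EV libraries. Both NAMPT comparisons chose the family through Cyp4a10 and Cyp4a14, which are PPARA targets too. The gene lists were drawn up with earlier results of these data known. Calls in those comparisons, on this list and on those that follow, are thus not independent of the choice of the family. Of 49 listed genes 46 passed the filter. Of all genes 7.67% were called higher and 5.77% lower with NAMPT in WT. The shares were 4.18% and 3.78% between the genotypes given NAMPT, and 10.1% and 12.0% with diet. The counts of this list and of those that follow stand beside these shares. In WD WT NAMPT against WD WT EV, 18 of 46 fell and none rose, with a median log2 fold change of -0.39 beside 0.00 over all genes. Retsat, a retinol saturase, fell by 1.12 ± 0.18 (SE), from 367 ± 41.2 to 183 ± 91.5 CPM (limma adjusted p = 0.00331). Acsl1, which activates long-chain fatty acids, fell by 0.83 ± 0.18 (0.00922) and Acot1, an acyl-CoA thioesterase, fell by 0.67 ± 0.22 (0.0467).

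The summed level of the list ran from 16894 to 25956 CPM in WD WT EV, with a median of 23974, and from 10719 to 22809 CPM in WD WT NAMPT, with a median of 16463. WD WT NAMPT libraries 1 and 2, at 10913 and 10719 CPM, held the lowest sums and also the lowest Cyp4a10 values of 51.8 and 27.3 CPM. Library 8 of WD WT EV, at 16894, was the lowest of its group in both as well. The count of 18 fell to 5 in the edgeR quasi-likelihood test and to 3 without WD WT NAMPT library 3.

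In WD LKO NAMPT against WD WT NAMPT, 20 of 46 targets rose and none fell, with a median of 0.43 beside -0.01 over all genes. Mogat1, a monoacylglycerol acyltransferase, rose by 1.79 ± 0.52 (limma adjusted p = 0.0376), Acot1 by 0.78 ± 0.23 (0.0413), Retsat by 0.76 ± 0.19 (0.0228) and Acsl1 by 0.76 ± 0.19 (0.0228). The count fell to 5 in the quasi-likelihood test and to 0 without WD LKO NAMPT library 2 or library 5. No target was called in WD LKO NAMPT against WD LKO EV or in WD LKO EV against WD WT EV, with medians of 0.12 and -0.06.

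With Western diet, 22 of 46 targets rose and 2 fell, with a median of 0.46 beside 0.00 over all genes. The lipid droplet gene Cidec rose by 4.59 ± 1.13 (limma adjusted p = 0.00528), Mogat1 by 3.48 ± 1.04 (0.0184), the pantetheinase Vnn1 by 2.74 ± 0.48 (0.000260) and the fatty acid-binding protein Fabp2 by 2.60 ± 0.13 (2.97e-12). Without chow library 3, 20 rose and 1 fell, and without chow library 1 the count of calls was 11. Summed target levels were 14178, 15250 and 14197 CPM in the chow libraries, so library 3, with its high Cyp4a14, was not high in the other targets.

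**Figure D4:**
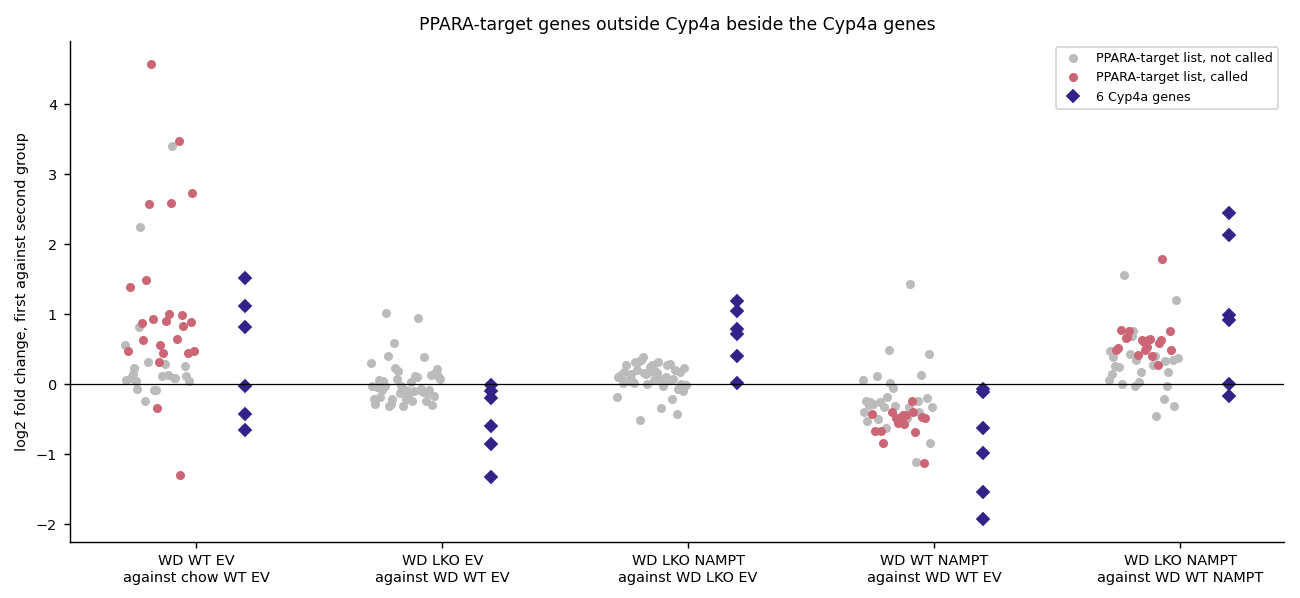
Circles give the log2 fold change (first against second group) of the 46 PPARA targets kept, coloured where called, and diamonds give that of the 6 Cyp4a genes, in each of 5 comparisons. Called targets lie below 0 with NAMPT in WT (18) and above 0 between the genotypes given NAMPT (20), and no target is called in the second and the third comparison.

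Ppara itself rose with Western diet, from 104 ± 4.88 to 223 ± 36.1 CPM (log2 fold change 1.04, limma adjusted p = 5.69e-05). It was not called with NAMPT in WT (-0.29, 0.221) or between the genotypes given NAMPT (0.49, 0.0647), values looked up after they were seen. Of 13 genes for PPARA, its relatives, partners and repressors, the other calls with diet were Pparg (1.29 higher), Ppard (-1.74) and Med1 (-0.26). That made 2 of 13 higher and 2 lower, beside 10.1% and 12.0% of all genes. No gene of this list was called in the other 4 comparisons.

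Enzymes that handle the products of omega-hydroxylation were lower with NAMPT in WT and higher in LKO than in WT among mice given NAMPT, with list medians of -0.39 and 0.38, and the median with diet was 0.24. The list held 22 genes for cytochrome partners, alcohol and aldehyde dehydrogenases and peroxisomal enzymes, 10 of them also on the PPARA list, and 21 passed the filter. In WD WT NAMPT against WD WT EV 6 fell and none rose. Ehhadh fell by 0.56 ± 0.14 (limma adjusted p = 0.0144), the electron donor Cyb5a by 0.48 ± 0.13 (0.0221) and the thioesterase Acot12 by 0.47 ± 0.12 (0.0185). The 6 became 1 without WD WT NAMPT library 3 or WD WT EV library 2 and 2 in the edgeR quasi-likelihood test.

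In WD LKO NAMPT against WD WT NAMPT 7 of the 21 rose and none fell, among them Acot4 at 0.66 ± 0.20, Ehhadh at 0.65 ± 0.15 and Acot12 at 0.52 ± 0.13 (limma adjusted p = 0.0471, 0.0196 and 0.0241). The 7 became 0 without WD LKO NAMPT library 2 or 5 or WD WT NAMPT library 3, and 1 in the quasi-likelihood test. With Western diet 8 rose and 2 fell, led by the fatty aldehyde dehydrogenase Aldh3a2 at 1.49 ± 0.17 and the peroxisomal thiolase Acaa1b at 1.39 ± 0.22 (limma adjusted p = 1.86e-06 and 0.000103). Without chow library 1 or 2, and in the quasi-likelihood test, 4 rose and 0 fell. None was called in the other comparisons.

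Arachidonate epoxygenases, which turn the same substrate into epoxides, were followed together with the epoxide hydrolases, which turn those epoxides into diols. Of 14 genes 8 fell and none rose with NAMPT in WT, among them Cyp2c54 (-1.97 ± 0.58), Cyp2c37 (-1.74 ± 0.42), Cyp2c50 (-1.36 ± 0.37) and Cyp2c29 (-1.17 ± 0.30). Between the genotypes given NAMPT 5 rose and none fell, with Cyp2c37 at 1.63 ± 0.45 and Cyp2c38 at 1.44 ± 0.39. Without WD WT NAMPT library 3 both counts became 0, as did the 8 without WD WT EV library 2 and the 5 without WD LKO NAMPT library 2, 3 or 5, and the quasi-likelihood test called 1 in each. The 8 also became 0 without quality weights and with 2 surrogate variables. With diet Cyp2c38 rose by 1.11 ± 0.39 and Cyp2c29 fell by 1.04 ± 0.34, and neither was called without chow library 1 or 2. Of all genes 10.1% were called higher and 12.0% lower with diet. Cyp2c genes are close copies too, and their single values are uncertain in the same way.

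Male-predominant liver genes were followed beside Cyp4a12a and Cyp4a12b. Of 16 kept, 8 fell and none rose with Western diet, among them Serpina1e (-4.25 ± 0.88), Selenbp2 (-3.28 ± 0.69), Egfr (-2.12 ± 0.38) and Cyp7b1 (-1.90 ± 0.52). The 8 became 2 and 1 without chow libraries 1 and 2, and 2 in the quasi-likelihood test. The Cyp4a12 genes were not called there. Between genotypes given the empty vector none of the 16 was called, 13 were negative and the median was -0.52, beside 0.00 over all genes. With NAMPT in WT 2 of the 16 fell, Susd4 (-1.81 ± 0.55) and Elovl3 (-1.66 ± 0.42), and between the genotypes given NAMPT 1 did, Serpina1e (-3.76 ± 0.76). The shares of all genes called lower there were 5.77% and 3.78%. The 2 became 0 without WD WT NAMPT library 3 or WD WT EV library 2 and in the quasi-likelihood test, while DESeq2 called 1 higher and 0 lower. Serpina1e was not called without WD LKO NAMPT library 2 or 5.

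Of 14 female-predominant genes, 1 rose and 4 fell with diet, 2 rose between the genotypes given NAMPT, and none was called elsewhere. Of 10 genes of growth hormone signalling, Stat5b (-0.33 ± 0.08) and Igf1 (-0.56 ± 0.16) fell with diet and none was called in the other 4 comparisons. Since 10.1% of all genes were called higher and 12.0% lower with diet, little is read from the counts of these lists.

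Clock genes also moved, and the labels give no hour of collection. With diet 6 of 18 rose and 5 fell, among them Dbp (4.04 ± 1.17) and Arntl (-1.58 ± 0.30), beside 10.1% and 12.0% of all genes. With NAMPT in WT 1 rose, Noct (1.41 ± 0.36), and 6 fell, among them Arntl (-1.99 ± 0.44) and Npas2 (-1.98 ± 0.64). Between the genotypes given NAMPT 2 rose, among them Hlf (0.60 ± 0.17). The 11 calls with diet became 3 and 2 without chow libraries 1 and 2, the 7 with NAMPT in WT became 0 without WD WT NAMPT library 3, and the 2 became 0 without WD LKO NAMPT library 2. Their part in the Cyp4a values was not tested.

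In wild-type mice macrophage markers were higher with NAMPT, where Cyp4a10 was lower. In bulk liver, fewer cells of a type and less RNA per cell cannot be told apart. Of 10 markers 5 rose with NAMPT in WT, namely Trem2 (1.92 ± 0.54), Lyz2 (1.14 ± 0.26), Cd68 (0.995 ± 0.23), Adgre1 (0.91 ± 0.23) and Cd5l (0.91 ± 0.22). Their summed level ran from 294 to 433 CPM in WD WT EV and read 943, 953, 917, 628, 493.2 and 281 CPM in WD WT NAMPT libraries 1 to 6. In WD LKO NAMPT it ran from 309 to 726 CPM, and no marker of the list was at 0 in every library. The count of 5 became 0 without WD WT NAMPT library 3 and 3 in the quasi-likelihood test.

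Library 6 of WD WT NAMPT had the lowest sum of all WD libraries, 281 CPM, and library 5 read 493.2 CPM. Cyp4a10 was 179 and 119 CPM in these libraries. Libraries 1, 2, 3 and 4, with sums of 943, 953, 917 and 628, held 51.8, 27.3, 87.9 and 131.2 CPM of Cyp4a10. Library 4 was thus above library 5 in both. Cyp4a14 read 44.2, 33.9, 70.7, 95.5, 33.1 and 35.5 CPM in libraries 1 to 6. WD LKO NAMPT library 1, the highest of its group in macrophage markers at 726 CPM, was the lowest in Cyp4a10 at 308, and the other 4 ran from 309 to 435 CPM in the markers and from 542 to 577 CPM in Cyp4a10.

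**Figure D5:**
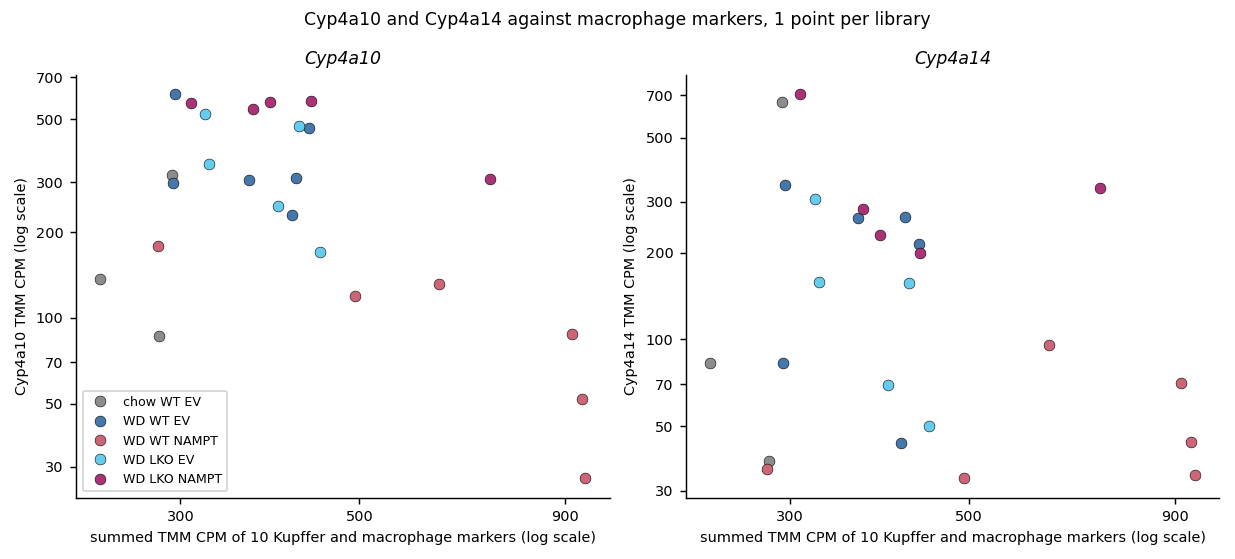
Each of the 25 libraries is 1 point, coloured by group, with the summed level of 10 macrophage markers on the x axis and Cyp4a10 (left panel) or Cyp4a14 (right panel) on the y axis, all in TMM CPM on log scales. WD WT NAMPT points run from 281 to 953 in the markers and stay at or below 179 in Cyp4a10 and 95.5 in Cyp4a14.

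Markers of other cell types were compared between the same WT groups. Of 3 neutrophil markers kept, S100a9 rose with NAMPT in WT (1.57 ± 0.48), and the list summed to 1.51 to 17.3 CPM there against 1.24 to 5.91 CPM in WD WT EV. Of 7 stellate cell and fibroblast markers, Col1a1 (1.70 ± 0.48), Col3a1 (1.18 ± 0.33) and Des (0.66 ± 0.16) rose. Of 6 endothelial markers 1 rose and 2 fell, and of 7 lymphocyte, 5 cholangiocyte and 2 adipocyte markers none was called. The 8 hepatocyte markers summed to 50883 to 68209 CPM in WD WT EV and 46193 to 64398 CPM in WD WT NAMPT, with 1 called lower, Apoc3 (-0.33 ± 0.10). The kidney list did not exceed 4.57 CPM in any library. The 3 stellate calls became 0 without WD WT NAMPT library 3. How far these shifts contributed to the Cyp4a values was not tested.

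Between the genotypes given NAMPT, where Cyp4a10 was higher in LKO, all 10 macrophage markers had negative log2 fold changes, with a median of -0.69. Lyz2 was called lower (-1.05 ± 0.28, limma adjusted p = 0.0275). The 3 neutrophil markers and the 7 stellate cell and fibroblast markers were all negative too, with medians of -1.06 and -0.34 and no call. The cholangiocyte marker Sox9 (-1.44 ± 0.38) and the hepatocyte marker Tat (-0.74 ± 0.21) fell. With Western diet all 10 macrophage markers were positive, with a median of 0.54, and Cd5l (1.06 ± 0.22) and Cd68 (0.79 ± 0.28) rose. Their summed level ran from 239 to 293 CPM in the chow libraries. Col3a1 (1.11 ± 0.36) and Lrat (0.54 ± 0.11) of the stellate list, Fabp4 (1.01 ± 0.32) of the adipocyte list and the hepatocyte marker Apoc3 (0.40 ± 0.10) rose with diet, while the hepatocyte markers Tat (-0.95 ± 0.21) and Fgb (-0.35 ± 0.13) fell. The endothelial marker Lyve1 (1.13 ± 0.30) and the lymphocyte marker Nkg7 (3.36 ± 0.87) rose too, and endothelial Kdr (-0.20 ± 0.07), lymphocyte Cd79b (-0.79 ± 0.28) and Lrp2 (-1.10 ± 0.39), the only kidney marker kept, fell. Neither macrophage call with diet was made without chow library 1 or 2. These marker calls with diet stand beside 10.1% of all genes called higher and 12.0% called lower. With NAMPT in LKO, where Cyp4a10 gave 0.72, 7 of 10 macrophage markers were positive with a median of 0.15, all 5 cholangiocyte markers were negative with a median of -1.12, and all 8 hepatocyte and 7 stellate markers were negative with medians of -0.11 and -0.13. Between genotypes given the empty vector 8 of 10 macrophage markers were positive with a median of 0.12. No cell type marker was called by limma in either of these comparisons. The part of these markers in the Cyp4a values was not tested.

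Scaled by library size alone, the median of all genes moved to 0.16 in WD WT NAMPT against WD WT EV and to -0.12 in WD LKO NAMPT against WD WT NAMPT. The share of higher calls went from 57.1% to 88.1% and from 52.5% to 24.3%, and for diet from 45.6% to 32.6%. The direction of Cyp4a10 and of Cyp4a14 in both NAMPT comparisons that chose the family was the same under every alternative run. Both genes were chosen for large changes there, so this adds no independent support.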

How the data were processed

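Poly-A liver RNA was sequenced as single reads by the authors. Reads were aligned with STAR and counted per gene with featureCounts on Ensembl annotation, keeping unique, unambiguous alignments. The submitters' notes name STAR 2.5.1a, featureCounts 1.4.6-p5 and GRCm38, and the paper names other versions. Strand use in counting is not given in the sources used here. The deposited raw counts were analysed. The deposited CPM and RPKM values, made by the authors from those counts, were recomputed (largest relative deviation 5.9e-14) and then not used. Of 41388 features, 40340 were given a symbol.

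Groups follow the sample titles, although the treatment text names the insert SIRT1 where titles say NAMPT. Members and gene lists were chosen with earlier results of these data known. As in the study, genes above 1 CPM in at least 2 libraries were kept, 4 ribosomal RNA genes were left out, and 14065 genes were scaled by TMM (edgeR 4.0.16) and fitted with limma 3.58.1 voomWithQualityWeights in R 4.3.3, with 25 libraries and 1 mean per group. Benjamini-Hochberg adjusted p-values of 0.05 or less over all genes were called, and "rose" and "fell" mean called. Fold changes are log2 with SE, and levels are TMM CPM with SD. DESeq2 1.42.0 and sva 3.50.0 served as alternatives. Correlations used log2(CPM + 0.5). Per list and comparison, up to 4 called genes with the largest change were named, any gene of lists of 10 or fewer, the 5 genes most like each of 3 members, and neighbours. Some genes that the rule names are not reported here. No libraries of a group agreed within sampling noise (smallest chi-square per degree of freedom 13.7). In simulated counts of 14065 genes with 200 changed 2-fold, 60% were recovered for diet, 72.5% for genotype under the empty vector and 70.5% for the vector within LKO, with 0, 9 and 7 false calls. The simulated libraries shared 1 mean profile and had independent noise, with no outlying library. These figures therefore do not cover the dependence on single libraries seen in the data. Sequences came from Ensembl transcripts of GRCm38.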

Additional observations from a re-analysis of the deposited data

Results flagged for a closer look

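Of 24 sets made of 1 Cyp4a gene in 1 group of 5 or 6 libraries, 2 held a library far from the rest by Dixon's ratio, and chance alone flags about 1 in 20 sets. Cyp4a10 in WD LKO NAMPT library 1 was the lowest of its group at 308.1 CPM, with a ratio of 0.872 against a critical value of 0.71. Cyp4a14 in WD LKO NAMPT library 3 was the highest of its group at 708.8 CPM, with a ratio of 0.733. Without single libraries the log2 fold change of Cyp4a10 in WD LKO NAMPT against WD WT NAMPT ran from 2.24 to 2.68, and that of Cyp4a14 from 2.03 to 2.38.

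Cyp4a14 had a log2 fold change with NAMPT of -1.54 in WT and of 1.19 in LKO, values of opposite sign that differ by 2.73 ± 0.81 (SE). The LKO value did not pass the test (95% interval -0.03 to 2.41, limma adjusted p = 0.532), so a rise in LKO is not established. The difference is given without a test because the WT comparison chose the gene.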

How the results depend on the processing

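Of 1046 values recomputed under alternatives for 52 results, 953 were labelled the same. For a tested member fold change that meant the same sign and the same side of the threshold. For a count of calls it meant a count within a set factor of the main one. Where no test was made it meant a move of less than the spread between replicates. Of the 1046 values 804 were member fold changes, and 69 of these had the other sign. The counts of the other gene lists were recomputed under the same alternatives after their calls had been seen, and in the male-predominant list the 2 lower calls with NAMPT in WT became 6 higher calls with the replicate block. The causes of the others were not tested. With diet 2 members were called, against 0 by the edgeR quasi-likelihood test and without quality weights, and 1 by the edgeR exact test, by DESeq2, without a filter and with 2 surrogate variables, and leaving out 1 library gave 0 to 3 (0 without chow library 2, 1 without chow library 1 or WD WT EV library 1 or 4, and 3 without chow library 3, namely Cyp4a10, Cyp4a14 and Cyp4a31 but not Cyp4a32). PPARA targets called with diet (24) were 14 by quasi-likelihood, 11 without quality weights and 11 to 25 leaving out 1 library (11 and 13 without chow libraries 1 and 2). With NAMPT in WT (18) they were 5, 5, 10 with only the groups compared in the fit, 2 with surrogate variables, and 3 to 26 leaving out 1 library (3 without WD WT NAMPT library 3, 9 and 11 without WD WT EV libraries 2 and 6). Between genotypes given NAMPT (20) they were 5 by quasi-likelihood, 10 by the exact test, 13 by DESeq2, 5 without weights, 9 without a filter, 1 with only the groups compared, 0 with surrogate variables, and 0 to 23 leaving out 1 library (3 and 6 without WD WT NAMPT libraries 3 and 2, 9 without WD LKO NAMPT library 3, 0 without its library 2 or 5).

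Signs turned for members that were not called. With diet, Cyp4a14 gave -0.38 by quasi-likelihood, the exact test and DESeq2, and -0.42 to 1.66 leaving out 1 library. Cyp4a12a gave 0.083 with surrogate variables and -0.61 to 0.0015 leaving out 1 library. Cyp4a12b gave 0.10, 0.10 and 0.11 in the 3 count tests, 0.56 with surrogate variables and -0.30 to 0.35 leaving out 1 library, and Cyp4a31 gave -0.32 to 1.24. Cyp4a32 between genotypes given the empty vector gave 0.036, 0.036 and 0.038 in the count tests, 0.013 without weights, 0.026 by library size, 0.022 without a filter, 0.060 with surrogate variables and -0.17 to 0.19 leaving out 1 library. With NAMPT in LKO it gave -0.010, -0.0094 and -0.019 in the count tests, -0.012 with upper-quartile factors, -0.011 with only the groups compared, -0.065 with surrogate variables and -0.18 to 0.18 leaving out 1 library.

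Same-numbered libraries did not pair (correlation of deviations -0.324 to 0.367). With the replicate number as a replicate block, 3 members were called with diet (Cyp4a14 at 1.54, limma adjusted p = 0.0198, besides the other two), 28 PPARA targets were called with NAMPT in WT, and Cyp4a32 gave 0.21 between genotypes given the empty vector. The exact test gives no value for the difference between NAMPT effects. Depth limited Cyp4a31 most, with as few as 48 counts in a library.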
